A study of Danio rerio with 14 samples.

Results

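Fast-twitch fibers of skeletal muscle build their contractile apparatus from a set of proteins that the heart largely replaces with its own versions. Calcium that is released into the fiber binds troponin C, the troponin complex then frees the thin filament of alpha-actin, myosin pulls on it, and a calcium pump returns the calcium to the store. Transcripts of this set are low in a healthy adult ventricle, except for skeletal alpha-actin genes, which cardiomyocytes also use.

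The 10 genes described here were chosen by symbol: the myosin regulatory light chains mylpfa and mylpfb, the fast myosin heavy chain myhz2, the skeletal alpha-actins acta1a and acta1b, the fast troponin T genes tnnt3a and tnnt3b, the fast troponin C gene tnnc2, the Z-disc protein gene actn3b and the calcium pump gene atp2a1. All 10 were among the 39289 features of the table, and 6 of them (acta1a, acta1b, atp2a1, actn3b, mylpfa and tnnt3b) were among the 17437 genes that passed the filter on low counts. The question was whether these transcripts follow ckmb, a muscle creatine kinase gene that is high in NTG libraries.

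RNA was sequenced from pools of excised ventricles of adult zebrafish of the strain that the labels call TL1. TMEM43-WT (4 libraries), TMEM43-P111L (3 libraries) and TMEM43-S358L (4 libraries) fish carry human TMEM43, unchanged or with the named variant and joined to eGFP, under the zebrafish myl7 promoter, which drives it in cardiomyocytes, and NTG fish (3 libraries) carry no transgene. By the labels, fish of 18 to 21 months gave 3 TMEM43-WT, 2 TMEM43-P111L, 1 TMEM43-S358L and 1 NTG library, and fish of 5 months gave the others. The text of the paper speaks of fish of a single age, which differs from the labels, and the labels were used. The labels do not say which fish went into which pool, so p-values measure the spread between these libraries only.

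Total counts ran from 20621770 to 32418475 reads per library, and 1 read was worth 0.0288 to 0.0568 CPM (reads scaled by the library total and its TMM factor). Summed markers listed for ventricular cardiomyocytes, such as vmhc and the general cardiomyocyte gene myl7, came to 69940 to 101635 CPM in all libraries. Summed skeletal myogenic regulators came to 0.473 to 2.37 CPM. TMEM43-WT replicate 1 and TMEM43-S358L replicate 3 had the lowest TMM factors, both under 0.9.

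The 10 genes fell into 2 classes that differed by orders of magnitude. Per kilobase of exon, acta1b averaged 5069 CPM over the 14 libraries and ranked 10 of 39289 features, and acta1a averaged 527 CPM and ranked 244. Among the others atp2a1 averaged 0.565 CPM per kb, tnnt3b 0.195, mylpfa 0.185, mylpfb 0.157, tnnc2 0.115 and actn3b 0.105. The lowest were tnnt3a at 0.0228 and myhz2 at 0.00522 CPM per kb. Neighbors in this order from tnnt3b to actn3b overlapped widely over the libraries.

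**Figure D1:**
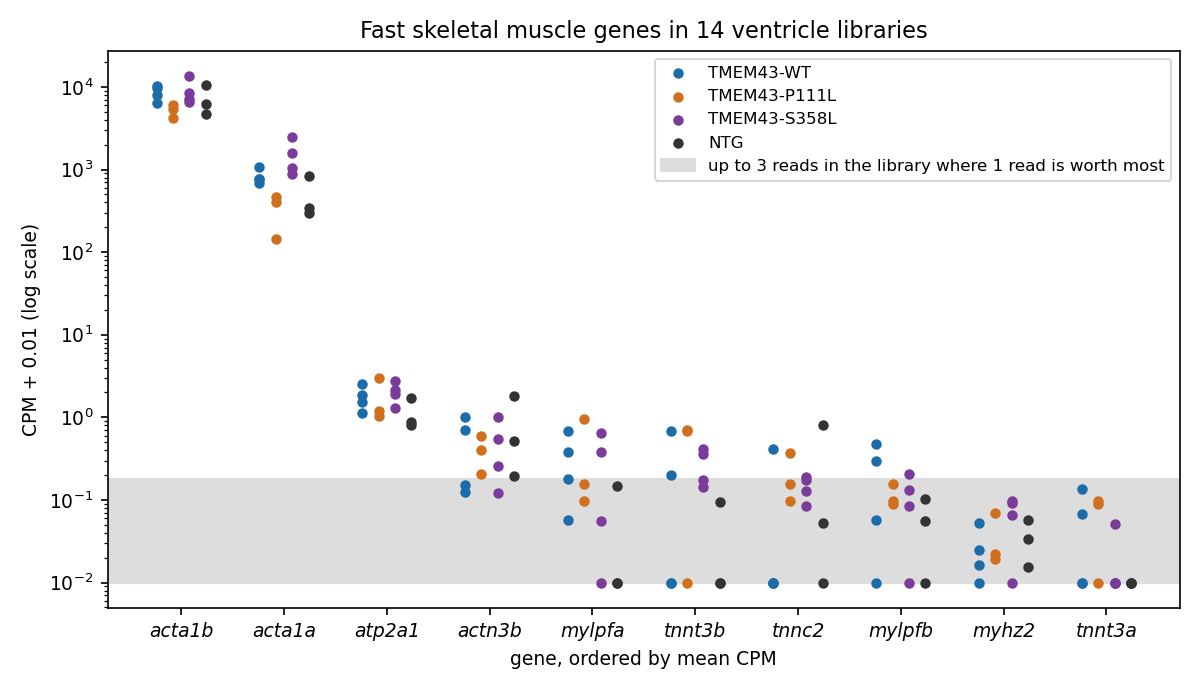
CPM + 0.01 on a log axis for each of the 10 genes, with 1 point per library and the 4 genotypes side by side; the gray band reaches 3 reads in the library where 1 read is worth most. The genes acta1b and acta1a lie above 100 CPM in all 14 libraries, and the other 8 lie at or below 3 CPM.

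Each gene was set beside a heart gene of the same role, a pairing made after the values had been seen. The mean level per kb of mylpfa was 71300 times lower and that of mylpfb 84100 times lower than that of the cardiac light chain myl7. The latter averaged 13219 CPM per kb. Troponin T tnnt3b was 22700 times and tnnt3a 194000 times lower than tnnt2a, and troponin C tnnc2 was 33900 times lower than tnnc1a. Heavy chain myhz2 was 31700 times lower than vmhc, the ventricular myosin heavy chain. With 10 reads of tnnt3a and 10.88 of myhz2 over all libraries, these ratios give an order of magnitude only. The calcium pump atp2a1 was 1220 times lower than atp2a2a. The alpha-actinin actn3b was 5650 times lower than actn2b, which itself ran from 211 to 1598 CPM per kb. The actins were closest to their counterpart, with acta1a 38.5 times and acta1b 4 times lower than cardiac alpha-actin actc1a.

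**Figure D2:**
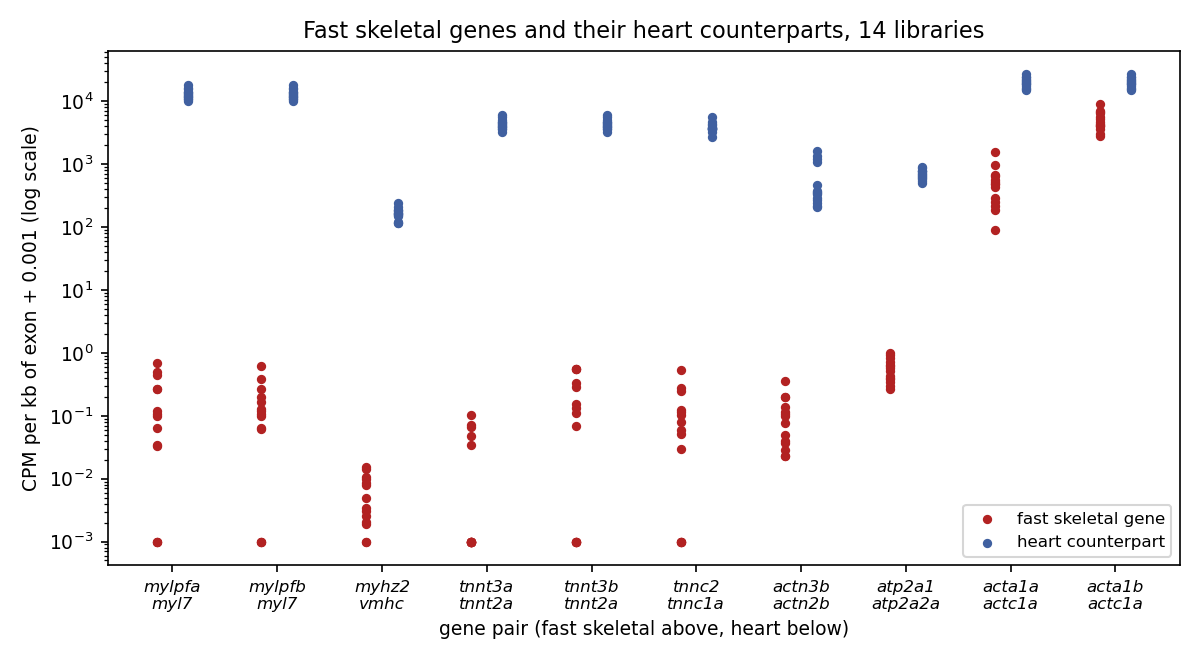
CPM per kb of exon + 0.001 on a log axis in each of 14 libraries for each fast skeletal gene (left of each pair) and a heart gene of the same role (right). The means of the 8 low genes lie 1220 to 194000 times under those of their counterparts, whereas acta1a and acta1b lie 38.5 and 4 times under actc1a. The largest of these ratios rests on 10 reads of tnnt3a.

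The genes are placed on GRCz11 by the deposited annotation, acta1a on chromosome 1 (53945959 to 53953532) and acta1b on chromosome 13 (24279058 to 24284442), both on the plus strand. Values of acta1a and of acta1b were not whole in 12 of 14 libraries each, within a tolerance of 1e-09, so reads that match more than 1 feature had been shared out between them. How that was done is not given in the sources used here, and the split between near-identical actin genes is therefore uncertain. The span of actn3b on chromosome 7 (6969733 to 7131865) overlaps those of rbm14b, LOC110439924 and ccs. Whether their exons overlap was not checked, so it is not known whether its reads could belong to these genes. Its values were not whole in 2 of 14 libraries. Those of myhz2 were not whole in 11 of 14, so its low level and its ratio to vmhc are uncertain for the same reason as the actins.

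Skeletal alpha-actin acta1a, a thin filament actin, was lowest in TMEM43-P111L and highest in TMEM43-S358L. TMEM43-WT libraries had 1063, 759, 767 and 683 CPM, TMEM43-P111L libraries 143, 460.5 and 404 CPM, TMEM43-S358L libraries 1042, 882, 2459 and 1571 CPM, and NTG libraries 295, 342 and 843 CPM. Every TMEM43-P111L library was below every TMEM43-WT and TMEM43-S358L library, and TMEM43-S358L was above all NTG libraries. TMEM43-WT averaged 818 ± 168 CPM (SD, n = 4), TMEM43-P111L 336 ± 170 CPM (n = 3), TMEM43-S358L 1488 ± 711 CPM (n = 4) and NTG 493 ± 304 CPM (n = 3). Without NTG replicate 4 the log2 fold change of acta1a in TMEM43-P111L against NTG turned to 0.07. That library is the only NTG library of older fish, so its removal sets NTG of 5 months against mostly older TMEM43-P111L. At 5 months TMEM43-P111L had 143 CPM against 295 and 342 CPM in NTG. In older fish it had 460.5 and 404 CPM against 843 CPM in NTG. Each comparison within an age has a single library in a group. In the 10 other settings the log2 fold change ran from -1.15 to -0.53. In a pool of ventricles, fewer cells of a type and less RNA per cell cannot be told apart.

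A gene was called where edgeR's quasi-likelihood test gave a Benjamini-Hochberg adjusted p below 0.05 over all 17437 genes tested and the log2 fold change was 0.05 or more in size. In TMEM43-P111L against TMEM43-S358L, acta1a fell by 2.15 on the log2 scale (SE 0.478, edgeR adjusted p = 0.0475), and it was the 1 of 6 tested members called there, where 1.04% of all tested genes were called and 0.585% were called lower. This call is close to the threshold. It was lost with no filter (edgeR adjusted p = 0.104) and with genes kept only at 1 CPM or more in 3 libraries (0.0506). The same held with only those groups in the fit (0.109) and when both libraries of low TMM factor were left out (0.134). Fits of only libraries of 5 months and with the replicate number as a block lost it too. Of the 10 settings tried beside the main one, 6 thus lost the call and 4 kept it, DESeq2 and limma-voom among the latter. Over these settings the log2 fold change stayed between -3.35 and -1.79, and the fit of 5 months had 1 TMEM43-P111L library. Leaving out single libraries gave adjusted p from 0.0227 to 0.147 and log2 fold changes from -2.44 to -1.78; the call was lost without any 1 of TMEM43-P111L replicates 2, 3 and 4, TMEM43-S358L replicates 1, 3 and 4, or TMEM43-WT replicates 1, 4, 5 and 6. At 5 months TMEM43-P111L had 143 CPM against 1042, 882 and 2459 CPM in TMEM43-S358L, and at 18 to 21 months it had 460.5 and 404 CPM against 1571 CPM.

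Against NTG, acta1a had a log2 fold change of 1.59 in TMEM43-S358L (SE 0.466, edgeR adjusted p = 0.0571), which passed with DESeq2 (adjusted p = 0.00516) and limma-voom (adjusted p = 0.0363). It also passed with age group as a covariate (log2 fold change 1.75, edgeR adjusted p = 0.0344), without NTG replicate 4 (2.22, adjusted p = 0.0193) and without TMEM43-P111L replicate 2 (1.59, adjusted p = 0.0307). For acta1a 7 of 10 other settings did not pass, with adjusted p up to 0.150, nor did 12 of 14 fits without a single library, with adjusted p up to 0.195, and the log2 fold change was 1.24 or more throughout. In TMEM43-WT it was 0.73 (SE 0.452, edgeR adjusted p = 0.343) and in TMEM43-P111L -0.56 (SE 0.477, adjusted p = 0.521). Between lines, TMEM43-P111L against TMEM43-WT gave -1.28 (SE 0.460, edgeR adjusted p = 0.297) and TMEM43-S358L against TMEM43-WT 0.86 (SE 0.414, adjusted p = 0.416).

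**Figure D3:**
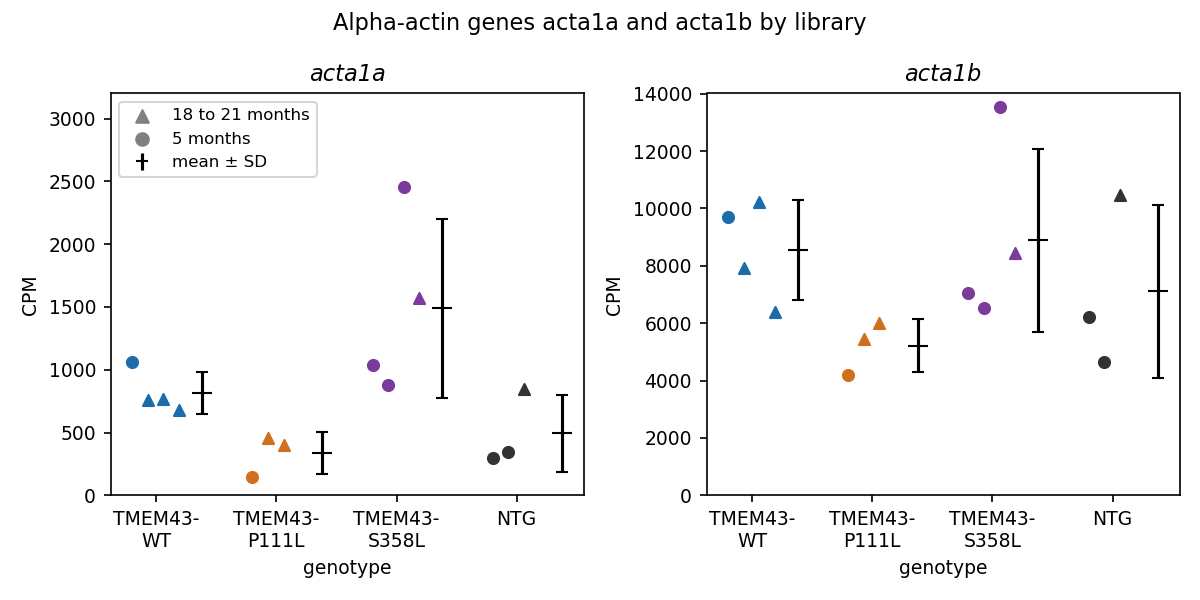
CPM of acta1a (left) and acta1b (right) per library by genotype, with triangles for 18 to 21 months and circles for 5 months and black bars for mean ± SD. TMEM43-P111L libraries are below all TMEM43-WT and TMEM43-S358L libraries for both genes.

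The other skeletal alpha-actin, acta1b, had the same order at the low end but passed no test. TMEM43-WT libraries had 9695, 7926, 10226 and 6398 CPM, TMEM43-P111L libraries 4202, 5443 and 6010.05 CPM, TMEM43-S358L libraries 7064, 6534, 13536 and 8436 CPM, and NTG libraries 6208, 4638 and 10480 CPM. TMEM43-P111L did not overlap with TMEM43-WT or TMEM43-S358L, whereas all lines overlapped with NTG. The log2 fold change was -0.71 in TMEM43-P111L against TMEM43-WT (SE 0.299, edgeR adjusted p = 0.407) and -0.77 against TMEM43-S358L (SE 0.300, adjusted p = 0.367). Against NTG it was 0.27 in TMEM43-WT (SE 0.296), -0.45 in TMEM43-P111L (SE 0.316) and 0.32 in TMEM43-S358L (SE 0.296), with edgeR adjusted p from 0.422 to 0.627. TMEM43-S358L against TMEM43-WT gave 0.05 (SE 0.273, edgeR adjusted p = 0.961), and this value turned to -0.17 without both libraries of low TMM factor.

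Non-overlap is common in groups this small. In TMEM43-P111L against TMEM43-S358L 2 of 6 tested members (acta1a and acta1b) did not overlap, where 9.8% of all tested genes did not. In TMEM43-P111L against TMEM43-WT it was the same 2 genes, against 10.9% of all genes. In TMEM43-S358L against NTG acta1a and tnnt3b did not overlap, against 19.2% of all genes. Of these, tnnt3b passed the filter on low counts through transgenic libraries only. The other 4 comparisons had 0 such members, beside 21.8% of all genes between TMEM43-WT and NTG, 27.1% between TMEM43-P111L and NTG, 8.8% between TMEM43-S358L and TMEM43-WT, and 0.74% between 18 to 21 months and 5 months.

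**Figure D4:**
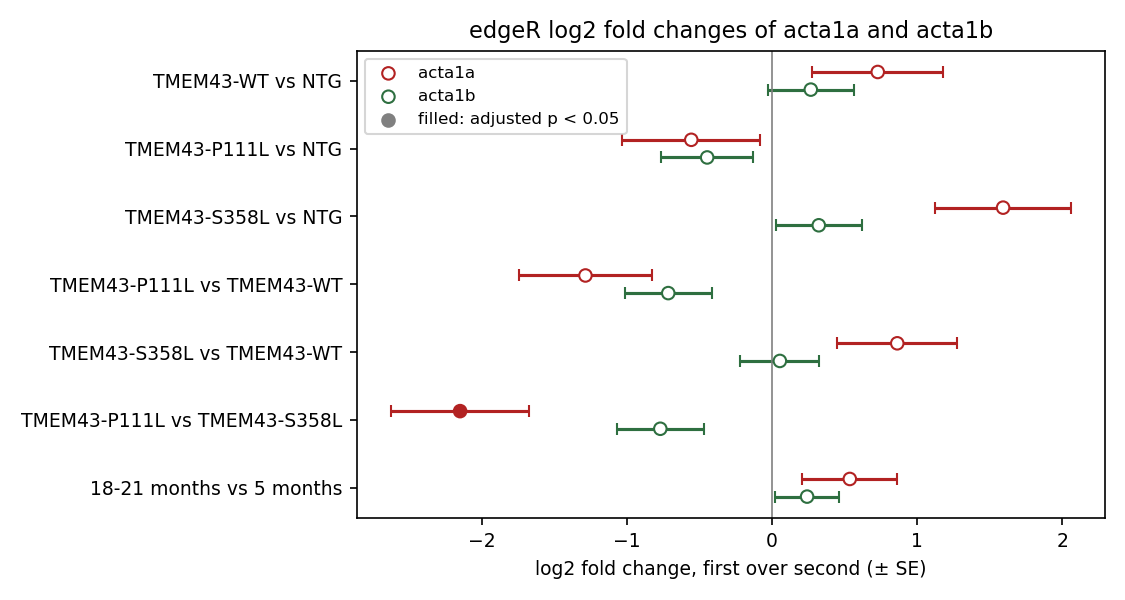
Log2 fold changes of acta1a and acta1b (± SE) in the 7 comparisons, first group over second; filled points passed an edgeR adjusted p of 0.05. The only filled point is acta1a in TMEM43-P111L against TMEM43-S358L, at -2.15.

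Both actin genes moved together over the libraries. Their log2 CPM had a Pearson r of 0.845 and a Spearman rho of 0.83 over the 14 libraries, given as a description since the genes share libraries, scaling and split reads. As a share of the summed CPM of 5 alpha-actin genes, a list made after the values had been seen, acta1b took 16.3% to 26.3% and acta1a 0.591% to 4.77%. The smooth muscle actin acta2 fell in TMEM43-P111L, to 72.5 ± 42.4 CPM (SD, n = 3) against 373 ± 63.5 CPM in NTG (n = 3), a log2 fold change of -2.37 (edgeR adjusted p = 0.00379). Against TMEM43-S358L, which had 371 ± 121 CPM (SD, n = 4), it was -2.36 (edgeR adjusted p = 0.00573). TMEM43-WT had the highest mean of acta2, at 494 ± 128 CPM (SD, n = 4). Cardiac actc1a and actc1b were not called in any comparison. Summed CPM of 8 smooth muscle and bulbus arteriosus markers was 212 to 406 in TMEM43-P111L and 683 to 1115 in TMEM43-WT. It was 527 to 952 in TMEM43-S358L and 510 to 697 in NTG, but much of this sum is acta2 itself. The other 7 markers summed to 180 to 290 CPM in TMEM43-P111L and 299 to 499 CPM in TMEM43-WT. They summed to 270 to 415 CPM in TMEM43-S358L and 182 to 251 CPM in NTG. Of all 8, only acta2 was called in TMEM43-P111L against NTG, where 5 of 8 fold changes were positive and their median was 0.22 on the log2 scale, and only acta2 was called against TMEM43-S358L, where 1 of 8 was positive and the median was -0.60. In TMEM43-P111L against TMEM43-WT 1 of 8 was called lower, 2 of 8 were positive and the median was -0.62. The part of these cells in the acta1a difference was not tested.

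The fast calcium pump gene atp2a1 was the best detected of the low genes, with 573.5 reads over all libraries. TMEM43-WT libraries had 2.5, 1.13, 1.52 and 1.84 CPM, TMEM43-P111L libraries 1.03, 1.18 and 3.0 CPM, TMEM43-S358L libraries 1.28, 1.90, 2.11 and 2.72 CPM, and NTG libraries 1.72, 0.791 and 0.879 CPM. All groups overlapped. Log2 fold changes against NTG were 0.62 in TMEM43-WT (SE 0.473), 0.62 in TMEM43-P111L (SE 0.498) and 0.81 in TMEM43-S358L (SE 0.472), with edgeR adjusted p from 0.326 to 0.483.

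The gene actn3b, whose alpha-actinin cross-links thin filaments at the Z-disc, had 179.67 reads in all. Its highest library was NTG replicate 2 with 1.79 CPM, against 0.186 and 0.502 CPM in the other two NTG libraries. TMEM43-WT libraries ran from 0.114 to 1.01 CPM, TMEM43-P111L libraries from 0.198 to 0.591 CPM and TMEM43-S358L libraries from 0.112 to 1.01 CPM. Log2 fold changes against NTG were -0.73 in TMEM43-WT (SE 0.857), -1.05 in TMEM43-P111L (SE 0.929) and -0.78 in TMEM43-S358L (SE 0.853), with edgeR adjusted p from 0.531 to 0.653. Without NTG replicate 2 they turned to 0.52, 0.20 and 0.47. The same library was highest for its paralog actn3a, at 11.9 CPM, and for the fast tropomyosin gene tpma, at 9.33 CPM, both named after their values were seen.

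Light chain mylpfa, which regulates the myosin head, had 85 reads in all. TMEM43-WT libraries had 12, 1, 8 and 4 reads, TMEM43-P111L libraries 24, 3 and 3, TMEM43-S358L libraries 9, 17, 1 and 0, and NTG libraries 3, 0 and 0. The 3 reads in NTG are too few for a fitted fold change to be read as a size, and edgeR adjusted p against NTG was 0.283 for TMEM43-WT, 0.240 for TMEM43-P111L and 0.350 for TMEM43-S358L. Its paralog mylpfb had 38 reads and was highest in TMEM43-WT replicate 6 with 11.

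Troponin T, the subunit that ties the complex to tropomyosin, was represented by tnnt3b with 86 reads and tnnt3a with 10. For tnnt3b TMEM43-WT libraries had 12, 4, 0 and 0 reads, TMEM43-P111L libraries 17, 0 and 24, TMEM43-S358L libraries 4, 11, 3 and 9, and NTG libraries 0, 0 and 2. TMEM43-S358L lay above NTG in each library, and TMEM43-P111L and TMEM43-WT overlapped with it. The edgeR adjusted p against NTG was 0.333 for TMEM43-WT, 0.150 for TMEM43-P111L and 0.270 for TMEM43-S358L. As tnnt3b passed the filter on low counts through transgenic libraries only, its direction against NTG is partly set by the filter. The gene tnnt3a had no read in NTG, where 3 reads per library, the limit that a count of 0 allows, come to 0.126 to 0.140 CPM, and at most 3 reads in any other library.

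The calcium sensor gene tnnc2 had 53 reads, of which 17 came from NTG replicate 3, against 0 and 1 in the other two NTG libraries. TMEM43-P111L replicate 2 followed with 9 reads and TMEM43-WT replicate 1 with 7. Heavy chain myhz2 had 10.88 reads over all libraries and at most 2.25 in any one. These counts cannot show a difference between genotypes at this depth.

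No member was called against NTG in edgeR with all 14 libraries and genotype as the only factor. In TMEM43-WT 0 of 6 were called against 8.34% of all genes, in TMEM43-P111L 0 of 6 against 7.59%, and in TMEM43-S358L 0 of 6 against 6.15%. At an unadjusted p under 0.05 there were 0, 1 (tnnt3b) and 1 (acta1a) members. DESeq2 and limma-voom each called 0, 0 and 1. The shares above are of edgeR, and those of all genes called by the other tools are not given here. The median log2 fold change of the 6 tested members was 0.67, 0.09 and 1.2, against -0.01, -0.00 and 0.00 over all genes. In turn 5, 3 and 5 of 6 were positive. Medians over 6 genes that include near-empty ones are no measure of a common change. Of these genes, mylpfa and tnnt3b passed the filter through transgenic libraries only. Their direction against NTG, and the unadjusted p of tnnt3b, are thus partly set by the filter.

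Between lines, 0 of 6 members were called in TMEM43-P111L against TMEM43-WT, where 0.826% of all genes were, with 2 at an unadjusted p under 0.05. In TMEM43-S358L against TMEM43-WT it was 0 of 6 against 1.62% of all genes, with 0 at an unadjusted p under 0.05. DESeq2 and limma-voom called 0 in both, and the shares of all genes that they called are not given here.

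Age was compared over genotypes, 18 to 21 months against 5 months with genotype as a covariate. In edgeR 0 of 6 members were called, where 0.969% of all genes were, with 1 at an unadjusted p under 0.05 (mylpfa). This gene had 19 reads over 7 libraries of 18 to 21 months against 66 reads over 7 libraries of 5 months, with overlap between the age groups and a log2 fold change of -2.80 (SE 0.809, edgeR adjusted p = 0.128). DESeq2 called it (adjusted p = 0.0375) and limma-voom did not (adjusted p = 0.0888). The highest counts of mylpfa, 24, 17 and 12 reads, were all in libraries of 5 months, and it passed the filter through these alone. Its lower level at 18 to 21 months is thus partly set by the filter. With the replicate number as a block the log2 fold change of mylpfa turned to 0.70. For acta1a the log2 fold change was 0.54 (SE 0.328, edgeR adjusted p = 0.529), and it turned to -0.18 without the genotype covariate. Without both libraries of low TMM factor it became 1.25 (SE 0.168, edgeR adjusted p = 0.0180). Those libraries are of 5 months and have the highest acta1a of that age, 2459 CPM in TMEM43-S358L replicate 3 and 1063 CPM in TMEM43-WT replicate 1. Their removal thus raises the fold change by itself, and it leaves TMEM43-WT without a library of 5 months. For acta1b the log2 fold change by age was 0.24 (SE 0.222, edgeR adjusted p = 0.711).

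The muscle creatine kinase gene ckmb separated NTG from the lines. TMEM43-WT libraries had 52.6 to 115 CPM, TMEM43-P111L libraries 35.4 to 43.0 CPM, TMEM43-S358L libraries 39.8 to 71.7 CPM, and NTG libraries 381, 1212 and 287 CPM. It fell by 3.04 on the log2 scale in TMEM43-WT (edgeR adjusted p = 0.00139), by 4.02 in TMEM43-P111L (0.000886) and by 3.52 in TMEM43-S358L (0.000544), all against NTG. The gene was picked with its high values in these NTG libraries known, so these p-values are no independent evidence of a difference.

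The fast genes did not have this pattern. The summed CPM of the 8 low genes was 1.91 in NTG replicate 3, the library highest in ckmb. NTG replicates 2 and 4 had 3.70 and 1.53 CPM. Transgenic libraries ran from 1.55 to 4.72 CPM, so NTG replicate 4 lay just below all of them. For acta1a NTG replicate 3 had 342 CPM and NTG replicate 4, lowest in ckmb of the NTG libraries, had 843 CPM. For acta1b NTG replicate 3 was the lowest of NTG, at 4638 CPM. The one member that was highest in NTG replicate 3 was tnnc2. Of 2 parvalbumin genes named after their values were seen, pvalb2 was also highest there at 5.07 CPM, and pvalb3 was at 16.6 CPM, near the 16.5 CPM of TMEM43-S358L replicate 1. They are not typical of the fast fiber genes outside the 10, of which 26 were tested: 3 (pvalb2, pvalb3 and myoz1a) were highest in NTG replicate 3 and 7 (eno3, actn3a, casq1a, jph1b, myoz1b, cacna1sa and, at 0 there as in other libraries, pvalb4) were lowest there.

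**Figure D5:**
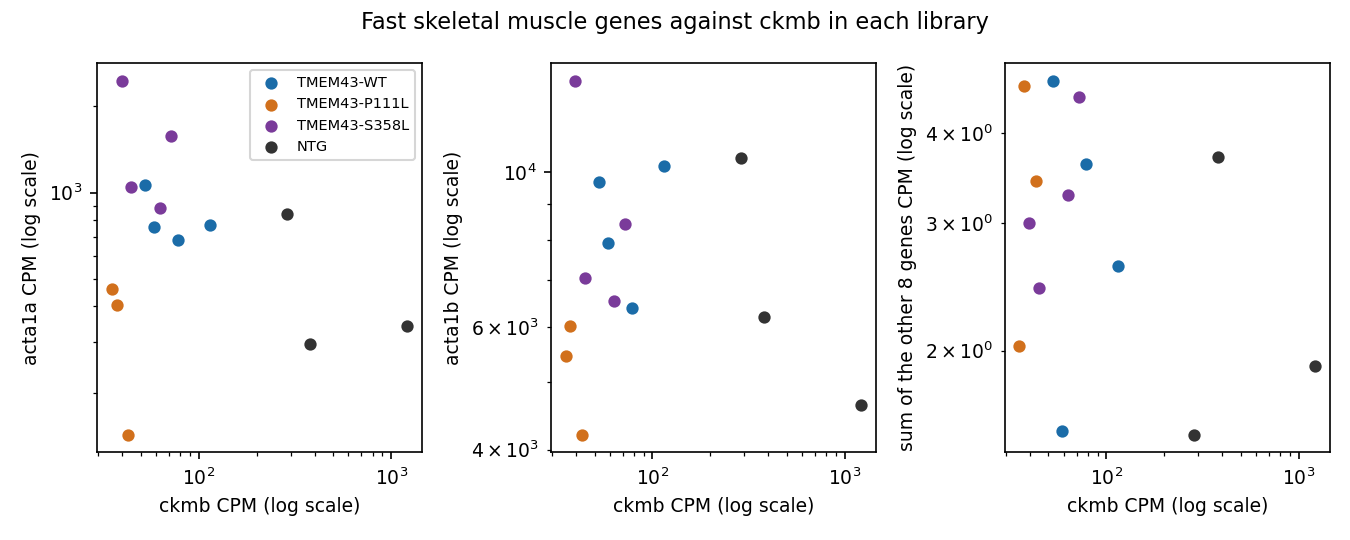
CPM of acta1a, acta1b and the sum of the other 8 genes against CPM of ckmb in each of 14 libraries, all axes log. The 3 NTG libraries lie to the right, at 287 to 1212 CPM of ckmb, and inside the range of the other libraries for each fast gene measure or at its lower end.

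Because ckmb divides the libraries into separate clusters, no correlation over all 14 was taken. Within the 11 transgenic libraries 6 relations were computed. They cover ckmb from 35.4 to 115 CPM only, so they cannot show whether members follow its high values in NTG libraries. Pearson r with ckmb was 0.219 for acta1a, 0.310 for acta1b, 0.071 for atp2a1, 0.301 for actn3b, 0.045 for mylpfa and -0.358 for tnnt3b. Spearman rho ran from -0.305 to 0.400. Raw permutation p for r ran from 0.281 to 0.896 with adjusted p from 0.742 to 0.896, and for rho raw p ran from 0.224 to 0.883 with adjusted p from 0.701 to 0.883. Without the 2 libraries farthest from the median of ckmb, TMEM43-WT replicate 5 and TMEM43-P111L replicate 3, r for acta1b was -0.01 and for tnnt3b -0.443. None of the 6 passed over 11 libraries. The test treats libraries of different lines as exchangeable. As deviations from genotype means, r turned to -0.399 for acta1a and -0.252 for acta1b, so the pooled r includes differences between lines. Leaving out 1 library at a time gave 11 fits for each of the 6 members, with p not adjusted for their number. Of all these fits 2 passed: acta1b without TMEM43-S358L replicate 3 (r = 0.647, permutation p = 0.0429) and tnnt3b without TMEM43-P111L replicate 3 (r = -0.651, permutation p = 0.0407).

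The traces of myosin and troponin genes were highest in other libraries. For 6 of them together (mylpfa, mylpfb, tnnt3a, tnnt3b, tnnc2 and myhz2, grouped after their values were seen) TMEM43-P111L replicate 2 had 55.49 reads or 2.20 CPM, TMEM43-WT replicate 1 had 2.11 CPM and TMEM43-S358L replicate 2 had 1.27 CPM. NTG replicates 2 and 4 had the lowest sums, 0.189 and 0.149 CPM, and NTG replicate 3 ranked 5 from the top with 0.930 CPM, of which tnnc2 gave 17 of 20 reads. This order depends on the choice of genes: with actn3b added, NTG replicate 2 ranked 3 from the top with 1.98 CPM, behind 2.40 CPM in TMEM43-P111L replicate 2 and 2.22 CPM in TMEM43-WT replicate 1, and TMEM43-WT replicate 4 was lowest with 0.422 CPM. The fast parvalbumin pvalb1, named after its values were seen and with 61 reads in all, was highest in the same 2 leading libraries. It was at 0.966 CPM in TMEM43-WT replicate 1 and 0.714 CPM in TMEM43-P111L replicate 2. Fast fiber genes outside the 10 had no common highest library. It was TMEM43-P111L replicate 2 for pvalb4, NTG replicate 3 for pvalb2, NTG replicate 2 for tpma and TMEM43-S358L replicate 2 for myl1.

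Other fast fiber genes were read from a list of 42, of which 41 were found and 26 tested. In TMEM43-WT against NTG 1 was called higher and 2 lower, in TMEM43-P111L 1 and 2, and in TMEM43-S358L 2 and 1, so 11.5% of the tested genes of the list were called in each, beside 8.34%, 7.59% and 6.15% of all genes. All of them are named here after their values were seen. The lower ones were pvalb2 in TMEM43-WT (log2 fold change -4.27, edgeR adjusted p = 0.0395), pvalb3, like it a calcium buffer, in TMEM43-WT (log2 fold change -2.19, edgeR adjusted p = 0.0202) and in TMEM43-P111L (-5.81, adjusted p = 0.000878), and tpma in TMEM43-P111L (-2.41, adjusted p = 0.0258) and TMEM43-S358L (-1.99, adjusted p = 0.0400). The higher ones were jph1b, of the junctions between membrane and calcium store, in TMEM43-WT (0.94, edgeR adjusted p = 0.0422) and TMEM43-P111L (1.29, adjusted p = 0.0142), and in TMEM43-S358L mybphb, a myosin binding protein (1.99, adjusted p = 0.0459), and pygma, a glycogen phosphorylase (1.23, adjusted p = 0.0159). By age, 2 of the 26 were called lower at 18 to 21 months and 0 higher, 7.69% beside 0.969% of all genes. For the genes called lower against NTG (pvalb2, pvalb3 and tpma) only means by age are given, not whether they were called by age. Mean pvalb2 was 0.166 CPM at 18 to 21 months and 1.77 CPM at 5 months. The mean of pvalb3 was also lower at 18 to 21 months, and that of tpma was not. Most TMEM43-WT and TMEM43-P111L libraries were of 18 to 21 months, and most NTG libraries of 5 months. The part of age in the calls against NTG was not tested. Genes that the heart also uses, such as the glycolytic enzymes eno3 (3901 to 7251 CPM) and aldoab (1823 to 2949 CPM), made up most of the summed level of this list. Of the 41 genes found, 17 stayed under 1 CPM in every library, among them the light chain myl1 (0 to 0.260 CPM), myhz1.2 (0.208 CPM at most) and myhz1.1 (0.769 CPM at most), and 24 did not. The fast light chain mylz3 was detected in every library, at 0.717 to 4.85 CPM. Exocrine pancreas markers summed to 25.9 to 243 CPM in NTG and at most 24.1 CPM in any transgenic library, and their part in these values was not tested.

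The genes whose pattern was most like the mean z-score of the 6 tested members over the 14 libraries, of 7998 compared, were riok3 (Pearson r = 0.836), nup155 (0.814) and lman2la (0.812), and the tenth was cyth1b (0.792). For single genes, a reading added after the values were seen, acta1a was most like dpp6b (r = 0.846) and had actc1a (0.807) and myoglobin mb (0.792) among its nearest 10, and acta1b was most like sesn2 (0.906) and had actc1a (0.833) and desmin desma (0.793) among its own. These r are descriptions over libraries that share scaling. Values of actc1a were not whole in any of the 14 libraries, so alpha-actin genes also share split reads. The part of these reads in the r of actc1a was not tested. Apart from acta1a with acta1b, Pearson r between the 6 tested members ran from -0.453 (tnnt3b with actn3b) to 0.448 (tnnt3b with atp2a1). Their mean z-score therefore stands for no common pattern of the members.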

How the data were processed

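The deposited table holds expected counts per gene. According to the submitters' processing notes and the paper, the authors used cutadapt 2.5 for trimming, STAR 2.7.2b for alignment (GRCz11) and featureCounts 1.6.4 for counting; strand and multi-mapping settings are not given in the sources used here. Libraries were poly(A)-selected, stranded and single-end. Intervals of counting error apply to reads, not molecules.

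Counts were rounded and analyzed in R 4.3.3 with edgeR 4.0.16 (filterByExpr by genotype, TMM, robust quasi-likelihood test, genotype as 1 factor of 4 groups over 14 libraries) with Benjamini-Hochberg adjustment over 17437 genes. Age was divided at 12 months, with genotype as a covariate. CPM used unrounded counts. Correlations used log2 CPM (prior count 2) and a permutation test with 100000 resamples. DESeq2 1.42.0 and limma 3.58.1 (voom) were alternatives, with other filters, scaling, samples, covariates and single libraries left out; leaving out both libraries of low TMM factor was chosen after seeing the data. Scripts were tested on simulated data. Figures were drawn with matplotlib 3.10.9.

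The 10 genes and the lists were chosen with earlier results of these data known. Named are the 10 genes, ckmb and ckma, up to 4 tested genes of highest mean CPM per other list and the 10 genes most like the members; exceptions are given where they occur. The creatine kinase gene ckma averaged 4302 CPM in TMEM43-WT, 4062 in TMEM43-P111L, 4906 in TMEM43-S358L and 4371 in NTG and was not called.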

Additional observations from a re-analysis of the deposited data

Results flagged for a closer look

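In TMEM43-S358L, tnnt3a was at 0.0412 CPM (1 read) in replicate 1 and at 0 in the other 3 libraries, and in TMEM43-WT, tnnc2 was at 0.398 CPM (7 reads) in replicate 1 and at 0 in the other 3 libraries. In both cases 1 library stood apart from the rest of its group by the whole range of the group, which 1 read is enough to do in a gene that is otherwise at 0. The nominal rate of the criterion, about 1 in 20 groups by chance, was not tested for such near-empty genes and need not hold there. The effects of TMEM43-P111L and TMEM43-S358L against NTG on acta1a differed from each other, with a log2 fold change of -2.15 between them (edgeR adjusted p = 0.0475), and the limits of that call are given with it.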

How the results depend on the processing

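Of the values recomputed, 634 of 674 log2 fold changes kept their direction and side of the threshold, and 17 turned direction, all of values that had not passed. Fold changes between lines of atp2a1, actn3b, mylpfa and tnnt3b, none of them called, are not reported and not counted here. In TMEM43-P111L against TMEM43-S358L the number of members called was 0 with no filter, with at least 1 CPM in 3 libraries, with only the groups compared, with only libraries labeled 5 months, with the replicate number as a block (log2 fold change of acta1a -2.22, adjusted p = 0.0566) and without both libraries of low TMM factor, and 0 to 1 with single libraries left out. In TMEM43-S358L against NTG it was 1 with DESeq2, limma-voom and age as a covariate, and 0 to 1 with single libraries left out. By age it was 1 with DESeq2 (mylpfa) and 1 without both libraries of low TMM factor (acta1a). The limits of both are given with the comparison by age.
Log2 fold changes by age turned under the replicate block to 0.70 for mylpfa, -0.087 for acta1b and -0.50 for atp2a1, and without the genotype covariate to -0.18 for acta1a. In libraries of 5 months alone the log2 fold change turned to -0.29 for atp2a1 (TMEM43-P111L against NTG) and -0.10 for acta1b (TMEM43-S358L against TMEM43-WT). At that age TMEM43-P111L and TMEM43-WT have a single library each, so both values rest on a single library in a group. The acta1b value also turned to -0.17 without both libraries of low TMM factor.
With single libraries left out, values ran from -0.85 to 0.074 for acta1a in TMEM43-P111L against NTG, from -0.23 to 0.18 for acta1b in TMEM43-S358L against TMEM43-WT, from -0.16 to 0.43 for atp2a1 by age and from -0.037 to 1.08 for atp2a1 in TMEM43-P111L against NTG. Against NTG actn3b ran from -1.35 to 0.52 in TMEM43-WT, from -1.52 to 0.20 in TMEM43-P111L and from -1.47 to 0.47 in TMEM43-S358L.
As deviations from genotype means, r with ckmb turned to -0.399 for acta1a and -0.252 for acta1b. With single libraries left out it ran from -0.0942 to 0.205 for mylpfa, from 0.124 to 0.647 for acta1b, from -0.651 to -0.0807 for tnnt3b and from -0.0715 to 0.294 for atp2a1.
Libraries with the same replicate number correlated at -0.227 to 0.265 in 13 pairs, of which 4 were over 0.1. Pairs of different numbers were not set beside them, so this check cannot show whether the numbers pair the libraries. Under the block 71 genes were called in TMEM43-P111L against TMEM43-S358L in place of 182. Under some settings mylpfa and tnnt3b fell under the filter and gave no value. The causes were not tested. Depth limits the 8 low genes, whose counts were at most 104 reads per library.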
